A study of Mus musculus with 19 samples.

Results

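Levels of 9 genes of myelin and of the oligodendrocyte lineage (Mbp, Mog, Mag, Cnp, Mobp, Opalin, Cldn11, Ermn and Olig1) were examined by RNAseq in cells sorted from the mouse hippocampus. The genes were picked by symbol, each symbol stood on 1 entry, and together they are 9 of 60567 entries listed by the authors. All 19 samples came from male mice of the C57bl6 background at 9 months of age. Mice had received in the hippocampus adeno-associated vectors (AAV) carrying the gfaABC1D promoter, a synthetic form of the GFAP promoter that drives expression in astrocytes. The groups were GFP+ astrocytes of wild-type mice with AAV-GFP (WT-GFP, labelled Astro-WT-GFP, n = 7), GFP+ astrocytes of APP/PS1dE9 mice, which carry mutant human amyloid transgenes and form plaques, with AAV-GFP (APP-GFP, n = 4), GFP+ astrocytes of APP/PS1dE9 mice with AAV-SOCS3 and AAV-GFP (APP-SOCS3, labelled Astro-APP-SOCS, n = 5), and the GFP- cells of wild-type mice with AAV-GFP (labelled Other-WT-GFP, n = 3). SOCS3 is an inhibitor of the JAK2-STAT3 pathway. The paper describes the GFP- cells as a mix of uninfected astrocytes, neurons, microglia and oligodendrocyte precursor cells. It reports that oligodendrocyte markers could not be detected after myelin removal. GFP- cells of APP/PS1dE9 mice were not analysed here. All suspensions, of GFP+ and GFP- cells alike, were dissociated with papain and passed over myelin removal beads before the sort, and GFP fluorescence was the only marker used to collect cells. Per the methods of the study, both hippocampi of a mouse were sorted separately, and the labels do not state which samples, if any, share a mouse. All tests treat the samples as independent, so p-values measure the spread between these samples, which may be partly technical.

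Oligodendrocytes wrap axons in a compact multilayered membrane, the myelin sheath. They arise from oligodendrocyte precursor cells through a short newly formed stage, and the basic helix-loop-helix factor Olig1 acts in the lineage from the precursor stage on. Among the products of the mature cell, myelin basic protein (Mbp) and Mobp hold the cytoplasmic faces of the sheath together, the enzyme Cnp keeps cytoplasmic channels open, Mag lies on the membrane next to the axon, Mog on the outer surface, Cldn11 forms the tight junctions of the sheath, Ermn is a cytoskeletal protein and Opalin a glycoprotein of the paranodal loops. Messengers of Mbp and Mobp are transported into the processes of the cell, away from its soma. Olig1 and Cnp are also reported outside mature oligodendrocytes.

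Sequencing depth was similar in all groups, with 19331876 to 32621917 reads on genes per sample. GFP+ samples had 15575 to 26757 entries above 0, and GFP- samples 30807 to 31897. The summed level of 10 astrocyte markers was 1238% to 2389% of the GFP- mean in the GFP+ samples, so the labelled cell type held by its markers. Socs3 lay between 13296 and 37750 in the 5 APP-SOCS3 samples and between 438 and 1639 in the 11 other GFP+ samples. All levels below are the read counts of the authors divided by 1 size factor per sample, on which 1 read was worth between 0.756 and 1.18.

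The 9 genes fell into 3 with steady reads and 6 with few. Olig1, Cnp and Mbp were above 0 in every sample. Mog, Mag, Mobp, Opalin, Cldn11 and Ermn gave 114 values in 19 samples, of which 48 were at 0, 4 rested on 1 to 3 reads and 15 on over 50 reads. APP-SOCS3 replicate 5 had no read in any of these 6 genes, while WT-GFP replicate 4 and APP-GFP replicate 3 had reads in all of them. A value of 0 allows up to 3 reads, or a level of up to 2.27 to 3.53 depending on the sample, and covers counting error only. At this depth, small differences between groups were not detectable for these 6 genes.

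**Figure D1:**
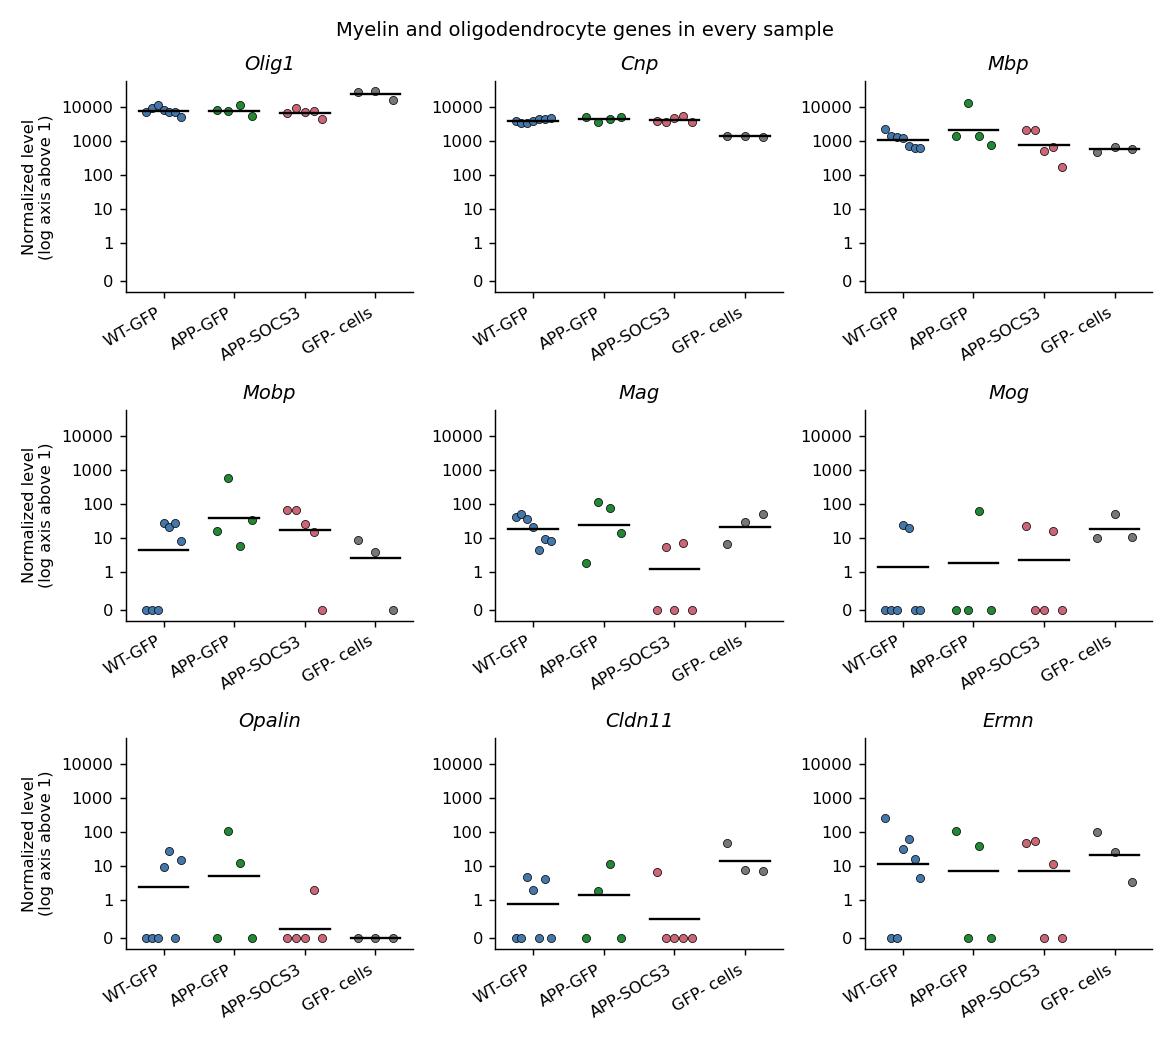
Normalized level of each of the 9 genes in each of the 19 samples, on an axis that is logarithmic above 1, with 1 point per sample and a bar at the mean of log2(level + 1). Olig1, Cnp and Mbp had reads in all samples, the other 6 genes had values at 0 in several GFP+ samples, and Cnp was the gene whose GFP+ samples all lay above the 3 GFP- samples.

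Per kilobase of exon (merged GENCODE exons, since the constitutive regions counted by the authors were not used here), Olig1 had the highest mean level in WT-GFP astrocytes, at 3768 ± 908 (SD, n = 7). Cnp followed at 1136 ± 154 and Mbp at 142 ± 69.2 per kilobase, and the samples of these 3 genes did not overlap. Ermn came next at 14.7 ± 25.7, then Mag at 5.89 ± 4.38, Mog at 3.57 ± 6.15, Opalin at 2.59 ± 3.68, Mobp at 1.75 ± 1.89 and Cldn11 at 0.827 ± 1.12 per kilobase, and within this run of 6 genes neighbours differed by less than their spread. In GFP- cells, Olig1 (11705 ± 3313 per kilobase, n = 3), Cnp (392 ± 15.9) and Mbp (70.1 ± 11.5) kept that order. Mog (14.2 ± 14.2), Ermn (11.9 ± 13.9), Cldn11 (11.5 ± 13.2) and Mag (7.00 ± 5.28) followed with overlapping samples, ahead of Mobp (0.608 ± 0.638) and Opalin at 0. Mog, Mag, Mobp, Opalin, Cldn11 and Ermn thus had low levels in both sorted fractions, and the part of the myelin removal step in this was not tested.

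To compare GFP+ astrocytes with the other cells of the hippocampus, WT-GFP astrocytes were set against GFP- cells of the same genotype. Cnp was higher in the astrocytes and Olig1 was lower, in both cases with no overlap between the groups. Mbp was also called higher, but its samples overlapped. Mog and Cldn11 were called lower on few reads. Genes that reached a mean level of 10 in either group entered limma as log2(level + 1), and a gene was called where its unadjusted p did not exceed 0.05 and its groups differed 1.5-fold or more. By this rule 42.8% of the 26709 genes tested were called, 9.25% higher and 33.5% lower, and the log2 fold changes of all genes had their median at -1.31. Of the 9 genes, 8 were tested, 2 were called higher, 3 lower and 3 were not called, and Mog and Cldn11 passed the minimum through the GFP- cells alone. Cnp, Olig1 and Cldn11 also passed adjustment by limma, as did 31.9% of all genes. With edgeR on the recovered reads, 3323 of all genes were called higher and 5265 lower, against 2471 and 8948 in the limma fit, and the median of all genes was -0.37. All genes had a median of -1.50 after samples were rescaled to equal totals. In bulk samples, fewer cells of a type and less RNA per cell cannot be told apart.

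Cnp, which encodes a 2′,3′-cyclic nucleotide phosphodiesterase, had levels of 3911, 3453, 3565, 3885, 4721, 4607 and 4786 in the WT-GFP samples. GFP- cells had Cnp levels of 1490, 1413 and 1376. Every astrocyte sample was thus far above every GFP- sample. The log2 fold change of Cnp was 1.52 ± 0.16 (SE), a 2.88-fold difference, with an adjusted limma p of 3.48e-05 and a 2-sided exact permutation p of 0.0167, the smallest that 7 against 3 samples can give. Groups did not overlap in the higher direction for 7.57% of all genes. The call held under all alternatives, with log2 fold changes from 1.35 to 1.81 in other settings and from 1.49 to 1.56 when 1 sample was left out. Cnp shares 154 exon bases with Dnajc7 on the opposite strand, 4.23% of its exon length, and whether the authors counted by strand is not given in the sources used here.

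Olig1 had levels of 28403, 30400 and 17118 in GFP- cells. In the WT-GFP samples it had 7383, 9672, 11482, 8465, 7208, 7424 and 5391. All astrocyte samples were lower than all GFP- samples, but in none was Olig1 near 0. Its log2 fold change was -1.63 ± 0.24, a 3.09-fold lower level, with an adjusted limma p of 0.000466 and an exact permutation p of 0.0167. The median of all genes was -1.31 by limma, -0.37 by edgeR and -0.67 by DESeq2, while Olig1 stayed between -1.80 and -1.38 over the settings tried, and 27.2% of all genes had groups that did not overlap in that direction. Olig1 shares 157 exon bases with the non-coding Gm15966 on the opposite strand.

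Mbp, on chromosome 18, had levels of 2286, 1459, 1310, 1291, 757, 652 and 658 in WT-GFP astrocytes. GFP- cells had Mbp levels of 500, 694 and 586. Of the 7 astrocyte samples, those at 652 and 658 fell among the GFP- samples and the others were above. The log2 fold change of Mbp was 0.89 ± 0.39, with an unadjusted limma p of 0.0455, an adjusted limma p of 0.107 and an exact permutation p of 0.05. This call was lost with equal totals (log2 fold change 0.72), with all 19 samples in 1 fit, and without WT-GFP replicate 1 (0.71), 2 (0.82), 3 (0.85) or 4 (0.85) or GFP- replicate 1 (0.77), 2 (1.01) or 3 (0.89).

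Mog and Cldn11 were the mature genes called lower in astrocytes. Both had reads in all 3 GFP- samples and were at 0 in several WT-GFP samples. Cldn11 had levels of 50.1, 7.56 and 7.07 in GFP- cells. In the WT-GFP astrocytes it was at 4.71, 1.97 and 4.15 in replicates 3, 4 and 6, and at 0 in the other 4. The groups did not overlap, as in that direction for 27.2% of all genes. The log2 fold change was -3.01 ± 0.87 with an adjusted limma p of 0.0223 and an exact permutation p of 0.0167. Cldn11 and Mog were tested only because they passed the minimum level in the GFP- cells, the group where they were higher. Without GFP- replicate 1, which held the highest value, Cldn11 did not reach the minimum level, and with a replicate block it was not called (-3.09). Mog had levels of 9.80, 52.2 and 10.6 in GFP- cells, and was at 23.6 and 19 in WT-GFP replicates 4 and 5 and at 0 in the other 5. Mog in WT-GFP replicates 4 and 5 was thus above its level in GFP- replicates 1 and 3. The log2 fold change of Mog was -2.96 ± 1.28, with an adjusted limma p of 0.10 and an exact permutation p of 0.1. The Mog call was lost without WT-GFP replicate 1, 2, 3, 6 or 7 (-2.74 each) or GFP- replicate 1 (-3.36), 2 (-2.21) or 3 (-3.31), in 1 fit of all samples, with a pseudocount of 10 (-1.09), and by edgeR (-1.69) and DESeq2 (-1.95).

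Mag, Mobp and Ermn were not called between GFP+ astrocytes and GFP- cells. Mag had levels of 40.2, 48.8, 36.5, 20.7, 4.33, 9.33 and 7.90 in WT-GFP astrocytes and of 6.53, 29.5 and 49.5 in GFP- cells, and the groups overlapped throughout. The log2 difference of Mag was -0.27 with a 95% interval of -2.54 to 2.00. Mobp (log2 difference 0.62, interval -2.48 to 3.73) and Ermn (-0.87, interval -4.88 to 3.14) had intervals too wide to place them on either side. Opalin was at 0 in all 3 GFP- samples and did not reach the minimum level. It had levels of 9.84, 27.7 and 15.8 in WT-GFP replicates 4, 5 and 7 and was at 0 in the other 4.

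**Figure D2:**
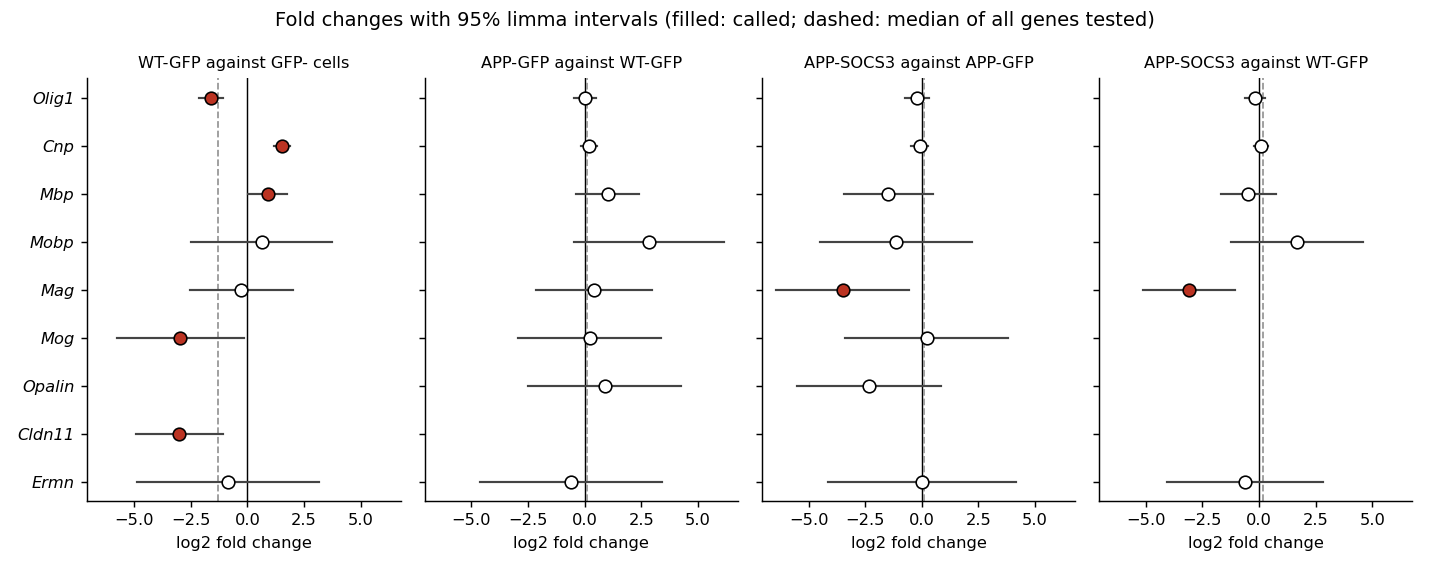
Log2 fold change of each tested gene in the 4 comparisons, with points filled where the gene was called, 95% limma intervals as lines and the median of all genes as a dashed line. Intervals of Olig1 and Cnp were narrow in all 4 comparisons, and those of the 6 genes with few reads spanned several log2 units.

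The upstream sequences of Cnp, the gene higher in astrocytes, and of Mag, the gene called lower in APP-SOCS3 astrocytes, are shown. The Mag calls did not pass adjustment over all genes, rest on few reads, and were made on a gene that passed the minimum level only through the group where it was higher. Cnp lies on the plus strand of chromosome 11, at 100574915 to 100591729 in mm10, and Mag on the minus strand of chromosome 7, at 30899183 to 30914874, both as placed by the authors. The other genes were placed at chr17:37010740-37023398 (Mog, minus strand), chr9:120149741-120181484 (Mobp, plus), chr19:41061711-41077114 (Opalin, minus), chr3:31149920-31164326 (Cldn11, plus), chr2:58045115-58052873 (Ermn, minus) and chr16:91269769-91271939 (Olig1, plus). Sequences are from RefSeq (GRCm38.p6, the assembly of mm10), 5′ to 3′ on the strand of the gene, and end before the first annotated exon base. For Cnp they cover chr11:100574689-100574903 and for Mag, at the most upstream of 3 RefSeq starts, chr7:30914923-30915172.
Cnp: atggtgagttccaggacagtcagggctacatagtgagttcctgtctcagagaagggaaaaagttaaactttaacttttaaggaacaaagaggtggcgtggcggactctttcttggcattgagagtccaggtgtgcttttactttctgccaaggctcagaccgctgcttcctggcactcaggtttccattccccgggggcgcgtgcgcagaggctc
Mag: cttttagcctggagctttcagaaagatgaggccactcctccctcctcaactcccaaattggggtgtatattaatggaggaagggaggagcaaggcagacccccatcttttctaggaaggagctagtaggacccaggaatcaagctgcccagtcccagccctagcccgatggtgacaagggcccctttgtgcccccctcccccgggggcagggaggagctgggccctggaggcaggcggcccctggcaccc
Of the 9 genes, 7 had RefSeq windows (9 windows in all); Mbp and Olig1 had no entry in the table. Over the 250 bases before each start, neither strand held the E-box CAGCTG or the motif TATAAA in any of the 9 windows, and the Sox motif ACAAT stood in 1 of them, 234 bases before the start of Ermn. Of 32851 windows of all genes, 13% held CAGCTG, 27.7% ACAAT and 12.4% TATAAA. No capitals are marked, as neither printed sequence holds a motif searched.

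Other genes of the lineage were taken from 6 lists of 45 genes: myelin membrane proteins, lipid enzymes of myelin, transcription factors, other mature genes, newly formed oligodendrocyte genes and precursor cell genes. Of the 43 tested between WT-GFP astrocytes and GFP- cells, 33 were called lower, 2 higher and 8 were not called, with a median log2 fold change of -4.06 beside -1.31 for all genes. Of all genes, 33.5% were called lower. Listed genes could pass the minimum level through the GFP- cells alone, so these counts and medians can include genes selected for being high there. All 8 precursor cell genes were called lower, with a median of -6.25. They included Tnr (-8.08 ± 1.67), an extracellular matrix protein, Pdgfra (-7.54 ± 2.06), the receptor that defines these cells, and Cspg4 (-6.42 ± 1.61), the NG2 proteoglycan, and the smallest difference was that of C1ql1 (-3.45 ± 0.51). All 4 newly formed oligodendrocyte genes were called lower (median -4.95), among them Gpr17 (-5.12 ± 0.43), a receptor of that stage, with levels of 9721 to 18884 in GFP- cells.

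Of 7 transcription factors, 5 were called lower (median -4.92). Zfp488 (-6.69 ± 1.3), Sox10 (-6.53 ± 1.42) and Myrf (-5.09 ± 1.51) had the largest differences, while Olig2, the partner of Olig1 that precursor cells also hold, had -1.59 ± 0.27. Nkx6-2 (-1.02) and Nkx2-2 (-1.58) were not called. Olig1 (-1.63) and Olig2 thus had fold changes of like size, nearer 0 than those of Sox10 and Myrf, and the difference was not tested. Of 4 lipid enzymes, 3 were called lower (median -4.39): Fa2h (-6.17 ± 1.32) and Ugt8a (-5.86 ± 1.81), which make galactolipids of myelin, and Gal3st1 (-2.92 ± 0.59), which sulfates them. Fa2h passed the minimum level only through the GFP- cells, the group where it was higher. Aspa, which splits N-acetylaspartate, was not called (-0.20 ± 1.44).

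Of 10 other myelin membrane proteins, 7 were called lower (median -3.84), led by the connexin Gjc3 (-6.69 ± 1.65) and the tetraspanin Tspan2 (-5.23 ± 1.64). Gpr37, an orphan receptor, was the exception, as its WT-GFP levels of 1299 to 4386 stood against 105 to 294 in GFP- cells. Its log2 fold change was 3.68 ± 0.43, with an adjusted limma p of 8.93e-05. Of 10 other mature genes tested, 6 were called lower (median -2.72) and Efhd1, a calcium-binding protein of mitochondria, was higher. Efhd1 levels of WT-GFP astrocytes were 1963 to 3119, those of GFP- cells 303 to 510, and its log2 fold change was 2.61 ± 0.22 with an adjusted limma p of 1.05e-05. Klk6 was at 0 in all 19 samples. Cnp, Gpr37 and Efhd1 thus had groups that did not overlap, with astrocytes higher than the mixed GFP- cells, although all 3 are used as oligodendrocyte genes. Astrocytes were not compared with mature oligodendrocytes, which the paper does not list among the GFP- cells. These 3 genes were singled out after their values were seen. The fold changes of lists of other cells, such as 10 microglial markers (all called lower, median -2.65) and 10 endothelial markers (all called lower, median -4.16), stand beside these values.

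**Figure D3:**
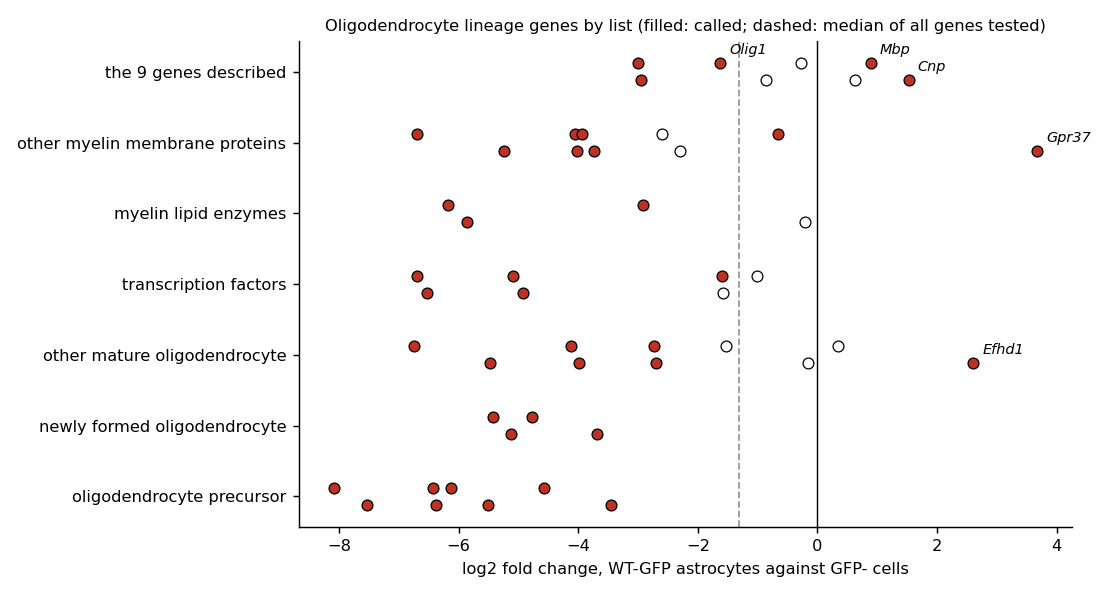
Log2 fold change between WT-GFP astrocytes and GFP- cells of the 8 tested genes described and of the 43 tested genes of the 6 lineage lists, 1 point per gene, filled where the gene was called, with the median of all genes as a dashed line. All precursor and newly formed oligodendrocyte genes lay below -3, while Cnp, Mbp, Gpr37 and Efhd1 were the called genes above 0.

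To see whether the amyloid genotype changed these genes in astrocytes, APP-GFP was compared with WT-GFP. None of the 8 genes tested was called, where 2.23% of 22969 genes tested were called in all. Of those calls 74.5% were higher by limma, 62.5% by edgeR and 38.7% by DESeq2. This comparison shares its WT-GFP samples with the previous one and its APP-GFP samples with the next. For Cnp and Olig1 the intervals were narrow. Cnp had levels of 5186, 3710, 4598 and 5380 in APP-GFP astrocytes (the highest WT-GFP sample had 4786) and a log2 difference of 0.19 with a 95% interval of -0.16 to 0.53. Olig1 had levels of 8517, 7860, 11780 and 5501, and a log2 difference of 0.03 with an interval of -0.45 to 0.52. At an unadjusted limma p under 0.05, none of the 8 tested passed, where 2.36% of all genes did (0.00435% after adjustment), and none of the 42 genes tested from the 6 lineage lists was called. DESeq2 called none of the 9 genes either, while edgeR called Mbp (log2 fold change 1.85) and Mobp (3.63).

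One APP-GFP sample decided the means of several genes. Mbp had levels of 1495, 13780, 1465 and 772 in the 4 APP-GFP samples. The value of replicate 2 was 6.03 times the highest of the 15 other GFP+ samples. In the same sample Mobp was at 566 (the other 15 reached 65.1 at most), Opalin at 110 (27.7 at most) and Mag at 118 (75.2 at most), so that Mbp, Mobp, Opalin and Mag all had their highest GFP+ level there. This library had 16471 entries above 0, against 24859 to 25273 in the other 3 APP-GFP samples. Its summed precursor cell genes were at 9.32% of the GFP- mean, the highest of all GFP+ samples, its microglial markers at 36.1% and its endothelial markers at 19.7%, and their part in these levels was not tested. Of the transcription factors in the lineage lists, Myrf (165) and Sox10 (195) were highest in this sample too. Mog and Ermn, by contrast, were at 0 in it, and Cnp (3710) and Olig1 (7860) lay within the range of the other samples. The log2 difference of Mbp between APP-GFP and WT-GFP was 1.01 (interval -0.37 to 2.39) with all samples and 0.13 without replicate 2, and Mbp was called (1.51) without APP-GFP replicate 4. No other APP-GFP sample stood high in these genes together. In APP-GFP replicate 3, Mog (63.3) and Cldn11 (11.9) had their highest values of all GFP+ samples, with Mbp at 1465.

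To see whether SOCS3 altered these genes in APP astrocytes, APP-SOCS3 was compared with APP-GFP and with WT-GFP, comparisons that share the APP-SOCS3 samples. Of the 9 genes, 8 were tested against APP-GFP and 6 against WT-GFP, and limma called Mag lower in both comparisons and no other gene. Against APP-GFP, edgeR (-5.84) and DESeq2 (-6.24) also called Opalin lower. Opalin passed the minimum level only through APP-GFP, the group where it was higher, with levels of 0, 110, 12.9 and 0 there. Without APP-GFP replicate 2 it did not reach the minimum level. Mag levels in the 5 APP-SOCS3 samples were 0, 5.58, 0, 6.86 and 0, from 6 reads in replicate 2 and 7 in replicate 4. In APP-GFP, Mag had levels of 1.81, 118, 75.2 and 13.9, and the values of WT-GFP astrocytes are given above. The highest APP-SOCS3 sample was above 1 of 4 APP-GFP samples and 1 of 7 WT-GFP samples. In the comparison with APP-GFP, 5.70% of all genes were called and 3.37% were called lower; higher calls were 40.9% of the calls by limma and 30.1% by edgeR. Mag had a log2 fold change of -3.50 ± 1.34, with an unadjusted limma p of 0.0241, an adjusted limma p of 0.694 and an exact permutation p of 0.0635. That call was lost without APP-GFP replicate 2 (-2.74) or 3 (-2.96), or APP-SOCS3 replicate 1, 3 or 5 (-3.21 each). In the comparison with WT-GFP, 5.21% of all genes were called and 2.02% were called lower. Higher calls were 61.2% of these by limma, 36.7% by edgeR and 29.2% by DESeq2, and the median of all genes by limma was 0.19. Here Mag had a log2 fold change of -3.09 ± 0.95, with an unadjusted limma p of 0.0057, an adjusted limma p of 0.512 and an exact permutation p of 0.0101, and remained called when any 1 sample was left out (-3.55 to -2.81). Leaving out 1 sample does not remove a trait that several samples share. WT-GFP replicates 1, 2 and 3, with the highest Mag of that group, had 19198, 18107 and 15575 entries above 0. APP-SOCS3 samples had 22050 to 26757, and the part of this in the Mag call was not tested. Mag passed the minimum level in both comparisons through the group where it was higher, and neither call passed adjustment, which 0.00438% of all genes passed against APP-GFP and 0.0305% against WT-GFP.

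Levels of Cnp in APP-SOCS3 astrocytes were 4072, 3666, 4799, 5694 and 3817. Those of Olig1 were 6981, 9699, 7175, 7741 and 4503. Both genes overlapped the APP-GFP samples. The log2 difference of APP-SOCS3 from APP-GFP was -0.10 for Cnp (interval -0.47 to 0.27) and -0.21 for Olig1 (interval -0.75 to 0.33). Against WT-GFP the differences were 0.09 for Cnp (interval -0.23 to 0.40) and -0.18 for Olig1 (interval -0.61 to 0.25). Mbp spread more widely, with APP-SOCS3 levels of 2222, 2128, 524, 694 and 174 and log2 differences of -1.48 from APP-GFP (interval -3.45 to 0.49) and -0.47 from WT-GFP (interval -1.68 to 0.74). Mobp was at 64.0, 65.1, 25, 14.7 and 0 in these samples and Ermn at 48.6, 57.7, 0, 11.8 and 0. Mog was at 22.1 and 15.7 in replicates 1 and 4 and at 0 in the other 3, Cldn11 had 6 reads in 1 sample and Opalin had 2 reads in 1 sample.

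From the 6 lineage lists, 40 genes were tested between APP-SOCS3 and APP-GFP, of which 7 were called lower and 1 higher. Of all genes, 3.37% were called lower. The 7 were Pllp and Tspan2 (myelin membrane proteins), Sox10, Trf (transferrin), Gpr17, C1ql1 and Neu4 (a sialidase of precursor cells). Tspan2 was at 0 to 7.03 in APP-SOCS3 and at 15.4 to 51.2 in APP-GFP, with no overlap (log2 fold change -3.93 ± 1.02), as was the case in this direction for 1.09% of all genes. Like Mag, Tspan2 passed the minimum level only through APP-GFP, the group where it was higher. Gpr17 was at 44.2, 574, 9.00, 68.6 and 5.27 in APP-SOCS3 and at 378 to 633 in APP-GFP (-3.50 ± 1.10). Tmem88b, a membrane protein, was higher, at 205 to 439 against 51.6 to 174 (1.16 ± 0.43), with no overlap, as in that direction for 0.924% of all genes; 2.33% of all genes were called higher. Without APP-GFP replicate 2, a choice made after seeing the data, Sox10 (-2.27), C1ql1 (-1.38), Neu4 (-3.20) and Mag (-2.74) kept their direction but were not called, and the others were called. Against WT-GFP, 2.02% of all genes were called lower. Of these lists 39 genes were tested there and 5 were called lower: Mal (-2.96 ± 1.28), Pllp (-2.57 ± 0.69), Trf (-1.31 ± 0.57), Gpr17 (-3.33 ± 0.90) and C1ql1 (-1.80 ± 0.55). None was called higher, where 3.19% of all genes were, and none of these genes passed adjustment by limma in either comparison (adjusted p from 0.351 to 0.872).

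Markers of other cell types moved with these results. Between APP-SOCS3 and APP-GFP, all 10 microglial and all 10 endothelial markers were called lower, as were 4 of 8 mural, 4 of 6 perivascular macrophage, 2 of 6 fibroblast and 3 of 9 neuronal markers tested, while none of 10 astrocyte markers was called. Of all genes, 3.37% were called lower in that comparison. Without APP-GFP replicate 2 the counts were 9 of 10 microglial and 9 of 10 endothelial markers. Against WT-GFP, 8 of 10 microglial and 8 of 10 endothelial markers were called lower, where 2.02% of all genes were. Summed microglial markers lay at 5.14% to 9.52% of the GFP- mean in APP-SOCS3, at 9.83% to 44.6% in APP-GFP and at 6.54% to 23.9% in WT-GFP samples, and none of the 10 was at 0 in any of them. Summed endothelial markers lay at 0.721% to 3.87%, 3.48% to 19.7% and 2.44% to 22.8% in the same order, with up to 3 of 10 at 0 in an APP-SOCS3 sample. Summed precursor cell genes lay at 0.902% to 5.07%, 0.966% to 9.32% and 2.31% to 6.39%. Their part in the lower levels of Mag and of the lineage genes was not tested.

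**Figure D4:**
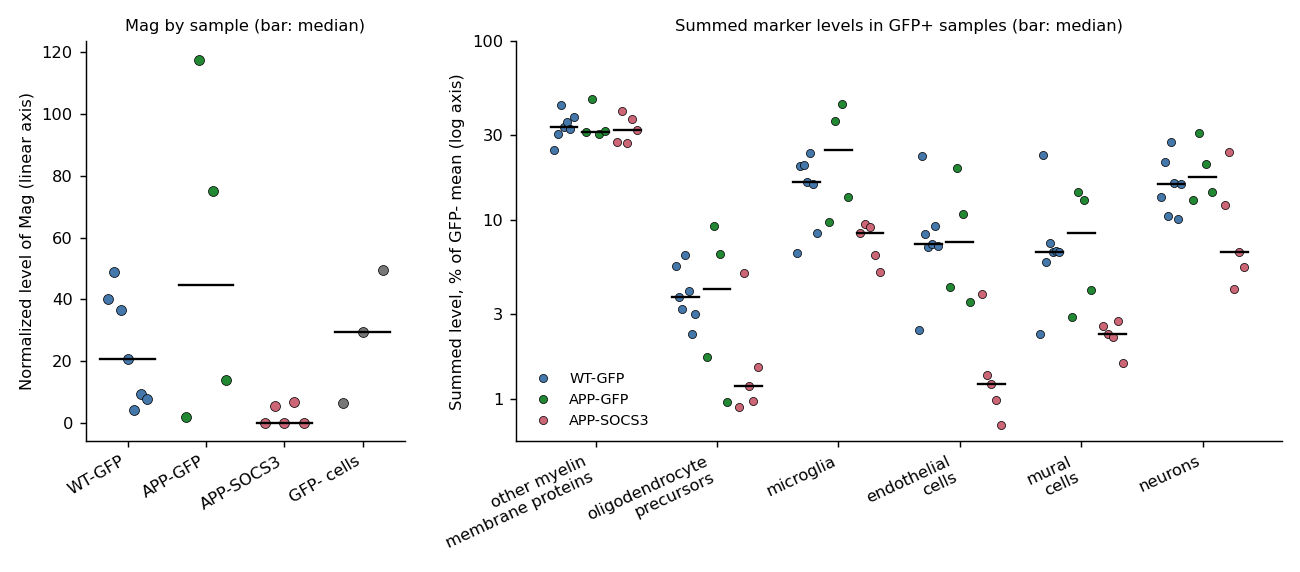
Left, level of Mag in each sample on a linear axis, with a bar at the median; right, summed level of 6 marker lists in each GFP+ sample as a percentage of the mean of the 3 GFP- samples, on a log axis, with a bar at the median. Mag was at 0 in 3 of 5 APP-SOCS3 samples. Precursor, microglial, endothelial, mural and neuronal lists had their lowest medians in the same group, and the other myelin membrane proteins did not.

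Relations across astrocyte samples were computed for Cnp, Olig1 and Mbp, the genes with steady reads. Over the 16 GFP+ samples, Cnp and Mbp had a Pearson r of -0.37 (permutation p = 0.158, Spearman rho -0.39, p = 0.134, r = -0.35 without the 2 farthest samples), and Olig1 and Mbp had an r of 0.49 (permutation p = 0.0527, rho 0.49, p = 0.0577, r = 0.30 without them). Of 15 relations computed among these 3 genes and 4 marker lists, that of Olig1 with the microglial list had the largest r, at 0.62 (permutation p = 0.00998, adjusted p = 0.131, rho 0.61, p = 0.0138, adjusted p = 0.207). It was 0.63 after group means were removed, 0.33 without the 2 farthest samples, and within the 7 WT-GFP samples it was 0.64. No relation passed adjustment. Within those 7 samples, r was -0.85 for Cnp with Olig1 and -0.80 for Cnp with Mbp, against -0.30 and -0.37 over all 16. WT-GFP replicates 1 to 4 and 5 to 7 did not overlap in Cnp (3453 to 3911 against 4607 to 4786). Nor did they in Mbp (1291 to 2286 against 652 to 757), while in Olig1 they overlapped. The part of this split, seen after the fact, in these r values was not tested. Among 12163 well-measured genes (mean level of 100 or more in these samples), Dpy19l1 (r = 0.83), the entry Parp1 // Mir6904 (0.82), the entry Smap2 // Mir7015 (0.82), Tmcc3 (0.81) and Plxdc2 (0.80) had the patterns most like the mean of 7 of the 9 genes. Among those most like Mbp were Akirin1 (r = 0.79), the entry Commd1 // B3gnt2 (0.79), Aktip (0.78) and the entry Rrp1 // Mir6907 (0.78). These 9 entries were higher in APP-GFP replicate 2 than on average in WT-GFP, and without the 2 farthest samples their r lay between 0.29 and 0.75.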

How the data were processed

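RNAseq values of 19 samples were used, grouped by the labels. Per the methods of the study, RNA was amplified with a low-input kit (SMARTer v4, then Nextera XT), sequenced in pairs, mapped to mm10 with STAR 2.4.0 and counted on constitutive regions of genes. The deposited unit is a signal per gene, the DESeq2-normalized level, that is, counts the authors divided by 1 size factor per sample. Steps of single reads gave back the whole reads, with 100% of values within 1e-06 of a whole number. PCR reads were counted without molecular identifiers.

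Levels were compared with limma 3.58.1 (R 4.3.3, with trend) on log2(level + 1), over genes with a mean of at least 10 in either group, using the samples of both groups. A gene was called where its unadjusted p did not exceed 0.05 and its groups differed 1.5-fold or more, with Benjamini-Hochberg values beside it; fold changes on this scale understate those of low genes. Single genes were also tested by a 2-sided exact permutation test, and correlations with 100000 permutations. Alternatives were pseudocounts of 0.1 and 10, no minimum or one of 100, equal totals, all samples in 1 fit, a replicate block, edgeR 4.0.16 and DESeq2 1.42.0 on the recovered reads, adjusted p-values and leaving out each sample. The main limma, edgeR and DESeq2 fits were run on simulated reads, with known fold changes only in genes above a minimum of mean reads. Recovery at the lowest read counts and the other alternatives were not tested in this way.

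The 9 genes and all lists were chosen with earlier results of these data known. Named were all 9 genes in all comparisons, every gene of the 6 lineage lists called between GFP+ groups and, between GFP+ and GFP- cells, examples from the 3 largest and 3 smallest fold changes per list. Exon lengths are from GENCODE M21, in which 120 of 120 listed genes overlapped the positions of the authors. Counting regions and other experiments of the study were not analysed here. Some genes of the lists and comparisons are not reported here by name.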

Additional observations from a re-analysis of the deposited data

Results flagged for a closer look

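In groups of 4 to 7 samples, 27 sets of values of the 9 genes were searched for a sample far from the others. On the level scale 8 held one, and on the log2 scale 3 did, each a set with only 1 sample above 0. Such a set is always flagged. The chance rate of 1 in 20 is for normally distributed values, which these are not, so the counts cannot be judged by it. On the level scale, the values flagged in APP-GFP replicate 2 were Mbp (13780), Mobp (566) and Opalin (110). In APP-GFP replicate 3 they were Mog (63.3) and Cldn11 (11.9), each with the other 3 samples at or near 0. The remaining 3 were Ermn in WT-GFP replicate 1 (259), Opalin in APP-SOCS3 replicate 4 (1.96) and Cldn11 in APP-SOCS3 replicate 1 (6.62), and the last 2 rest on 2 and 6 reads with all other samples of the group at 0.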

How the results depend on the processing

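Fold changes of the 9 genes were recomputed 559 times, of which 489 kept direction and side of the threshold, 38 changed direction, 5 became called and 27 were no longer called; where no cause is given, the cause was not tested. Calls in WT-GFP against GFP- cells were 11419 genes and 5 of the 9, with 6709 and 3 at a minimum level of 100 (fewer genes tested), 3 of the 9 in 1 fit of all samples and 3 after adjustment. In APP-GFP against WT-GFP they were 513 and 0, with 817 genes without a minimum, 123 at 100, 991 in 1 fit of all samples, 1 after adjustment, and 2 of the 9 by edgeR. In APP-SOCS3 against APP-GFP they were 1301 and 1, with 650 and 0 at 100, 1 and 0 after adjustment, and 2 of the 9 by edgeR and by DESeq2, which added Opalin (-5.84 and -6.24). In APP-SOCS3 against WT-GFP they were 1197 and 1, with 441 and 0 at 100, and 7 and 0 after adjustment. With 1 sample left out, calls ranged over 8838 to 11679 genes and 2 to 5 of the 9, 393 to 677 and 0 to 1, 1052 to 1836 and 0 to 1, and 904 to 1435 and 1, in that order.

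Direction changed in genes that were not called. Against GFP- cells, Mag was 0.0078 and Ermn 0.62 by edgeR, and Ermn 0.35 by DESeq2. For APP-SOCS3 against APP-GFP, Ermn was 0.31 with a pseudocount of 0.1, and Mog was -0.11 with a pseudocount of 10, -1.06 by edgeR and -1.08 by DESeq2. Without 1 sample, against GFP- cells, Mag ranged from -1.07 to 0.31, Mobp from -0.30 to 1.34 and Ermn from -2.04 to 0.20. In APP-GFP against WT-GFP, Mag ranged from -0.35 to 1.45, Ermn from -1.88 to 0.39 and Olig1 from -0.15 to 0.22. In APP-SOCS3 against APP-GFP, Mog ranged from -0.49 to 0.65, Mobp from -1.98 to 0.14 and Ermn from -1.02 to 1.26. In APP-SOCS3 against WT-GFP, Ermn ranged from -1.33 to 0.13, Cnp from -0.012 to 0.15 and Mbp from -0.85 to 0.071.

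The labels do not say what a replicate number marks, and deviations of same-numbered samples correlated between -0.18 and 0.24, with pairs on both sides of 0, so samples were not treated as paired. With a replicate block, 10999, 663, 1132 and 1433 genes and 4, 0, 1 and 1 of the 9 were called in the 4 comparisons, and Cldn11 was not called against GFP- cells (-3.09). With the replicate block Mag was 0.91 and Mobp -1.85 against GFP- cells, Mag -0.53 and Olig1 -0.17 in APP-GFP against WT-GFP, and Ermn 0.75 in APP-SOCS3 against APP-GFP. Few reads limit all statements on Mog, Mobp, Opalin, Cldn11, Ermn and Mag.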

Other observations

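Enpp2 and Trf, listed with mature oligodendrocyte genes, spread widely among astrocyte samples. Enpp2, which encodes autotaxin and is also a gene of the choroid plexus, ranged from 20.4 to 78271 in the 7 WT-GFP samples, and Trf from 1101 to 12236. The summed level of 6 ependymal and choroid plexus markers ranged from 571 to 85709 in the same samples and from 40652 to 114187 in GFP- cells.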
